A study of Homo sapiens with 8 samples.

Results

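The genes described here are the 69 protein-coding ZNF genes (symbols that begin with ZNF and a digit) chosen by the coding sequence footprint counts summed over 8 ribosome profiling (Ribo-seq) libraries, which had to reach 800. They were drawn from 512 ZNF regions among 20165 merged gene regions, of which 433 ZNF regions had at least 1 coding count and 6870 regions of any name reached 800. ZNF598 was left out by the rule. Because the summed count chose the genes, their levels are given as a description. Just inside the limit were ZNF22 with 805 counts, ZNF444 with 806 and ZNF143 with 813, and just outside it ZNF865 with 778, ZNF394 with 762 and ZNF335 with 756. Another 3 regions that join a ZNF symbol to a different gene were not counted as ZNF genes, and 4 of the 69 join several ZNF symbols.

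Ribo-seq sequences the stretches of mRNA that ribosomes shield from nuclease, so a count follows both the amount of an mRNA and how heavily it is translated. All cells were OVCAR3, an established ovarian cancer line, and each of 4 groups has 2 libraries. In the RACK1 experiment, every library came from cells given 1 µg/ml doxycycline for 48 h, which turned on a short hairpin RNA against the cells' own RACK1 (pTRIPZ vector) and, from a second vector, an HA-tagged RACK1 that was either wild type (RACK1-WT) or mutated at its sites of mono-ADP-ribosylation (RACK1-Mut). In the siRNA experiment, cells were transfected for 48 h with 30 nM siRNA, either control siRNA (siControl) or siRNA directed at OARD1, which encodes the ADP-ribose hydrolase TARG1 (siTARG1). The study lists 2 siRNAs against TARG1, and the labels do not say whether either or both were used here. RACK1 sits on the small ribosomal subunit, and the comparisons address whether footprints on mRNAs differ once RACK1 cannot be modified, or once an enzyme that takes the modification off is depleted. The lines carry a hairpin and a re-expressed protein together, so the RACK1 comparison has no library with unperturbed RACK1. Whether the lines are clones or pools is not given in the labels, which number the replicates without saying how they were made. The study's methods say only in general that its sequencing experiments used independent biological samples, so p-values here measure the spread between these samples.

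The libraries held 3100947 to 6604190 coding counts each. OARD1 stood at 121 and 69.1 normalized counts in siControl and at 5.83 and 6.75 in siTARG1 (log2 fold change -3.94, DESeq2 adjusted p = 9.31e-11). RACK1 itself stood at 23335 and 23594 in RACK1-WT and at 17745 and 17274 in RACK1-Mut (log2 fold change -0.42, DESeq2 adjusted p = 1.34e-08), a count in which the cells' own and the re-expressed RACK1 are not separated. Coding counts of the ovarian and epithelial markers PAX8, MUC16, EPCAM, KRT8, KRT18, MSLN and WT1 ranged from 1828 to 96983, those of the leukocyte marker PTPRC summed to 4 and those of the erythroid marker HBB to 0, while the fibroblast collagen gene COL1A1 held 1033.

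Most ZNF genes encode C2H2 zinc finger proteins, in which repeated short loops each hold a zinc ion between a pair of cysteines and a pair of histidines, and neighbouring fingers read neighbouring bases of DNA. The largest subfamily adds a KRAB domain, which recruits the corepressor TRIM28 and histone methylation to repeats and imprinted loci, and many of these genes stand in clusters on chromosome 19. Other ZNF proteins do not repress DNA at all and instead bind RNA, join small ubiquitin-like modifiers to proteins or help to build the large ribosomal subunit.

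In the ZNF genes studied here, 65 of 69 coding sequences matched at least 1 finger (cysteine, 2 to 4 residues, cysteine, 12 residues, histidine, 3 to 5 residues, histidine), and the exceptions were ZNF503, ZNF703, ZNF330 and ZNF185. ZNF142 matched 36 fingers and ZNF462 33, the median was 7, and 22 genes matched at least 10. A KRAB box pattern was matched in 17 genes, or 24.6%, against 0.408% of the 6870 regions with at least 800 counts. The 18 genes on chromosome 19 made up 26.1%, against 6.07%. Because the reads could have up to 64 hits, near-identical copies can share counts. In 13 of the 69 genes more than 10% of the 28-base words of the coding sequence occur in another gene's transcripts, up to 100% in ZNF395, whose sequence is also annotated within FBXO16, 74.4% in ZNF512 and 58.2% in ZNF706, and the counts of these genes are uncertain.

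The ZNF genes differ widely in base composition, and the fingers themselves show it. The first finger of the form cysteine, 2 residues, cysteine, 12 residues, histidine, 3 residues, histidine is printed for the gene with the lowest coding GC content (ZNF770), for the gene with the smallest p-value in the RACK1 comparison (ZNF121) and for the gene with the highest GC content (ZNF579), on the coding strand of GRCh37, with capitals at the codons of the cysteines and histidines. The positions are chr15:35275489-35275551 (minus strand), chr19:9677291-9677353 (minus strand) and chr19:56090808-56090870 (minus strand), all within coding exons.
ZNF770: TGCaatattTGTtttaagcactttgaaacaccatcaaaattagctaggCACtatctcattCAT
ZNF121: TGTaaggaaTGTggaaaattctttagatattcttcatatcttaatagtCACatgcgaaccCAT
ZNF579: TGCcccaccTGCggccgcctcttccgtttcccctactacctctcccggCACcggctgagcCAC
These 63-base fingers hold 31.7%, 31.7% and 69.8% GC. Over whole coding sequences GC content ran from 37% in ZNF770 to 75% in ZNF579, with a median of 48.4% against 51.2% over the 6792 regions with at least 800 counts and an annotated coding sequence. The ZNF genes were spread to both sides: 24 of 69 (34.8%) lay under 45% GC, against 26.1% of the 6870 regions, and 17 (24.6%) at 60% or above, against 18.6%. Coding length had a median of 1941 nt, against 1476 nt, and the annotated 3′ UTR a median of 2208 nt, against 1185 nt.

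Per length, ribosome occupancy of the ZNF genes was low. The density (RPKM computed here from coding counts alone, as the mean of the 8 libraries) had a median of 20.8 over the 69 genes and of 43.8 over the 6870 regions. ZNF706, which encodes a small protein with a single finger, stood highest at 128, followed by ZNF207, a spindle and kinetochore protein also known as BuGZ, at 116, ZNF703, a transcriptional corepressor, at 113 and ZNF146, which consists of little but fingers, at 98.9. ZNF292, a large transcription factor, was lowest at 6.09. By summed coding counts the order was ZNF703 with 6323, ZNF207 with 5959, ZNF217 (an oncogenic transcription regulator) with 4899, ZNF638 (a nuclear RNA-binding protein) with 4667 and ZNF770 with 4242.

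**Figure D1:**
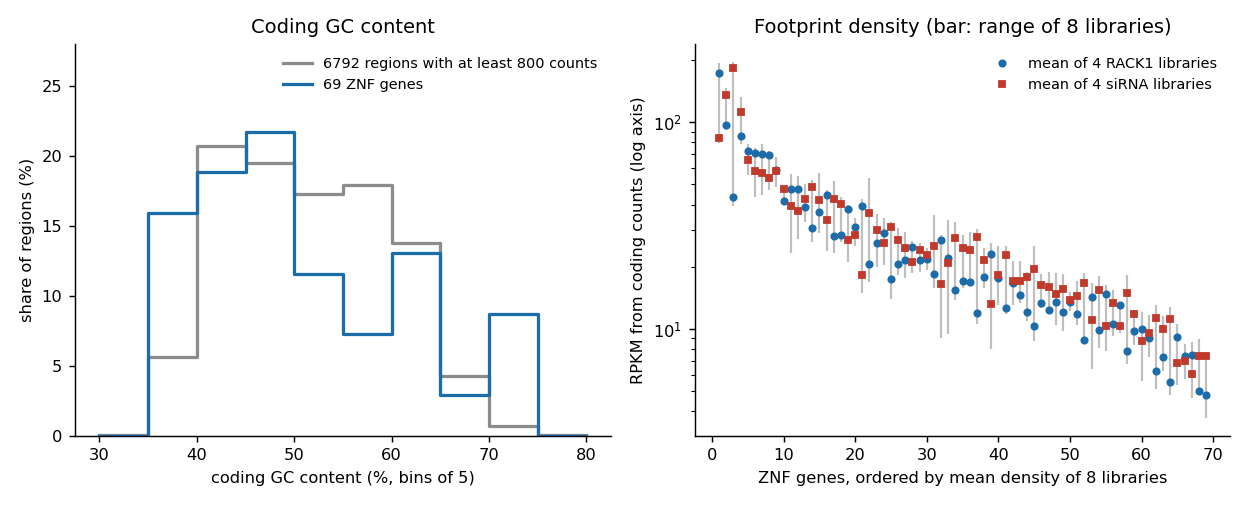
Left, share of regions (%) in bins of coding GC content (%), for the 69 ZNF genes and for the 6792 regions with at least 800 coding counts and an annotated coding sequence. Right, footprint density (RPKM from coding counts, log axis) of each ZNF gene, with the mean of the 4 RACK1 libraries and of the 4 siRNA libraries as points and the range of all 8 as a bar. The ZNF genes hold larger shares both under 40% and above 70% GC, and ZNF703, at rank 3, shows the widest gap between the experiments.

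Density was not the same in the 2 experiments. ZNF703 reached 166 and 174 in siControl and 196 and 195 in siTARG1, but 39.5 and 43.5 in RACK1-WT and 47.4 and 42.9 in RACK1-Mut. All 4 siRNA libraries lay above all 4 RACK1 libraries, with means 4.22 times apart. ZNF3 (2.33 times) and ZNF142 (2.00 times) also stood higher in the siRNA experiment, while ZNF503, a corepressor related to ZNF703, stood at 0.463 times and ZNF706 at 0.487 times. In 33 of 69 genes the libraries of the experiments did not overlap, and in the regions with at least 800 counts the share was 47.2%, so the count in the ZNF genes is near that background. Treatment, vectors and experiment differ together and cannot be told apart, so no test was made between them. Together the 69 genes held 0.376% and 0.380% of coding counts in siControl, 0.392% and 0.394% in siTARG1, 0.313% and 0.322% in RACK1-WT and 0.337% and 0.342% in RACK1-Mut. Without ZNF451 and ZNF703 the shares were 0.342% and 0.345% in siControl and 0.346% and 0.348% in siTARG1, and 0.294% and 0.302% in RACK1-WT and 0.315% and 0.321% in RACK1-Mut.

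In the RACK1 comparison, none of the 69 ZNF genes changed past the threshold. DESeq2 called 0 of 69 at an adjusted p under 0.05, edgeR called 0, and 3 genes had an unadjusted DESeq2 p under 0.05 (9 by edgeR). Over all 12520 regions tested, 10 were called (0.0799%), all 10 of them among the regions with at least 800 counts (0.146%). An unadjusted DESeq2 p under 0.05 was found for 1.64% of all regions and 2.43% of those with at least 800 counts. By edgeR, 605 of these 6870 regions had an unadjusted p under 0.05.

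ZNF121 came closest. It stood at 246 and 230 normalized counts in RACK1-WT and at 327 and 320 in RACK1-Mut, with both mutant libraries above both wild-type ones (log2 fold change 0.44, SE 0.16, DESeq2 adjusted p = 1.00, edgeR adjusted p = 0.0516). ZNF770, with the most AT-rich coding sequence, stood at 600 and 507 in RACK1-WT and at 666 and 688 in RACK1-Mut (log2 fold change 0.29, SE 0.12). ZNF780A, a KRAB gene, stood at 413 and 422 against 491 and 529 (log2 fold change 0.29, SE 0.13). These are the 3 genes with an unadjusted p under 0.05, and all 3 have a positive fold change.

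Other genes with groups that did not overlap had smaller counts or differences. ZNF436 had a log2 fold change of 0.41 (SE 0.21), with 122 and 131 normalized counts in RACK1-WT and 178 and 157 in RACK1-Mut, and ZNF22 one of 0.37 (SE 0.26), with 88.1 and 79.3 against 113 and 103. In the other direction, ZNF408 stood at 119 and 121 in RACK1-WT and at 87.1 and 101 in RACK1-Mut (log2 fold change -0.35, SE 0.25). ZNF326, a subunit of a complex that couples transcription to splicing, stood at 192 and 158 against 144 and 138 (log2 fold change -0.31, SE 0.21), and ZNF444 had a log2 fold change of -0.13 (SE 0.25). Every one of these had a DESeq2 adjusted p of 1.00. Of the 5 genes with most counts, ZNF703 (0.10), ZNF217 (0.04) and ZNF638 (0.10) had overlapping groups, and ZNF207 had a log2 fold change of -0.13, with 786 and 733 normalized counts in RACK1-WT and 710 and 679 in RACK1-Mut. ZNF579, at the GC-rich end, had a log2 fold change of -0.15 (SE 0.22) and overlapping groups.

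As a group the ZNF genes lay slightly above 0. The log2 fold changes ran from -0.35 to 0.44 with a median of 0.08, against a median of -0.0017 over all regions tested, and 44 of 69 were positive, against 49.6% of all regions. Both RACK1-Mut libraries lay above both RACK1-WT libraries in 21 genes and below both in 5. Over all regions tested 37.6% did not overlap, 18.7% higher and 18.9% lower. The other zinc finger genes with at least 800 counts (ZBTB, ZSCAN, ZKSCAN and ZFP, 15 in all) had a median of -0.0058.

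The fold changes fell with coding GC content. The 69 genes were split by GC content into 3 groups of 23. In the lowest group (37% to 44.3% GC) the median log2 fold change was 0.16 and 19 genes were positive, in the middle group (44.9% to 53.9%) 0.04 and 16, and in the highest group (54.7% to 75%) -0.03 and 9. The 21 genes with both mutant libraries higher were split 13, 6 and 2 over these groups, and the 5 with both lower were split 2, 1 and 2. These splits were not compared with those of other regions of the same GC content, so they are a description only. Spearman's rho between log2 fold change and GC content was -0.48 over the 69 genes (Pearson's r -0.46) and -0.22 over the other 6723 regions with at least 800 counts (Pearson's r -0.22). All genes share the same 4 libraries, so these values describe the libraries and carry no p. Under 40% GC the median was 0.18 in 11 ZNF genes and 0.07 in 373 other regions, and at 60% or above it was -0.05 in 17 ZNF genes and -0.04 in 1264 other regions.

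Over the ZNF genes, this slope rested largely on RACK1-WT replicate 2. Against the mean of the 4 libraries, the counts of RACK1-WT replicate 2 rose with GC content over the ZNF genes (rho 0.72, and 0.54 over the 6792 regions), while those of RACK1-WT replicate 1 (rho -0.28), RACK1-Mut replicate 1 (-0.37) and RACK1-Mut replicate 2 (-0.22) fell with it. In RACK1-WT replicate 2 the median log2 ratio to that mean was -0.12 in the lowest GC group and 0.13 in the highest, whereas RACK1-WT replicate 1 had -0.03 and -0.11, RACK1-Mut replicate 1 had 0.08 and -0.04, and RACK1-Mut replicate 2 had 0.06 and 0.02. These ratios are taken to the mean of the same 4 libraries, so a rise in one library pushes the others down. The negative signs are therefore no separate evidence of a trend in those libraries. Over the 6792 regions rho was -0.29 in RACK1-WT replicate 1, -0.29 in RACK1-Mut replicate 1 and 0.03 in RACK1-Mut replicate 2.

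**Figure D2:**
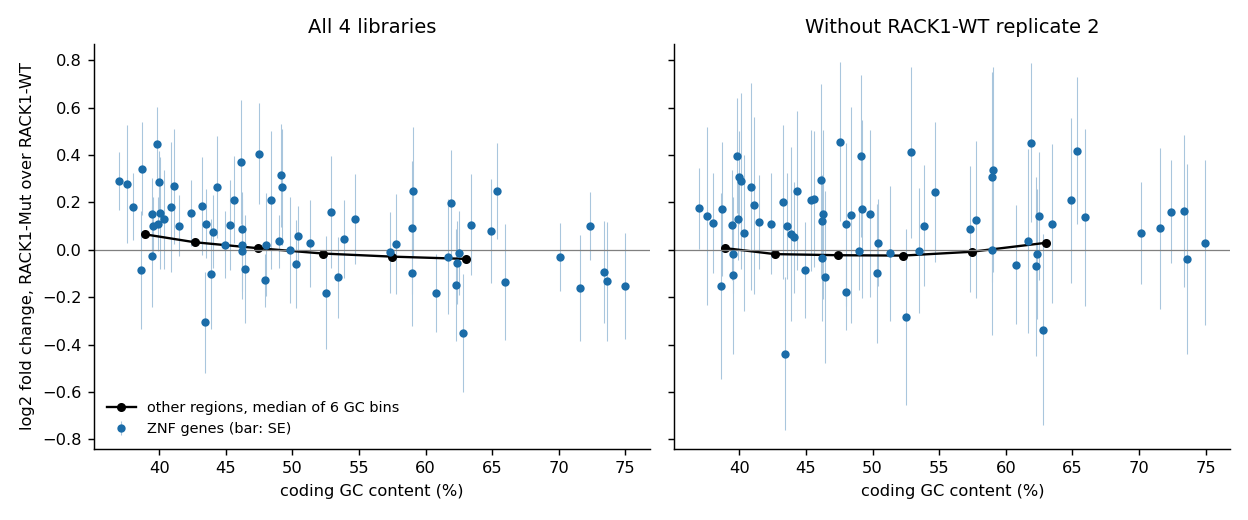
DESeq2 log2 fold change of coding counts, RACK1-Mut over RACK1-WT, against coding GC content (%) for the 69 ZNF genes (points, bars are SE), with the medians of the other regions with at least 800 counts in 6 GC bins (black). With all 4 libraries the points slope down from left to right (rho -0.48), and without RACK1-WT replicate 2 they lie level (rho -0.07), mostly above 0.

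Without RACK1-WT replicate 2, rho was -0.07 over the ZNF genes and 0.09 over the other regions, and the medians of the 3 GC groups were 0.12, 0.11 and 0.11. Without RACK1-WT replicate 1 the slope was steeper, with rho -0.66 and medians of 0.19, 0.03 and -0.10. Leaving out RACK1-Mut replicate 1 gave -0.39, and leaving out RACK1-Mut replicate 2 gave -0.44. Over the other regions rho was -0.46 without RACK1-WT replicate 1, -0.08 without RACK1-Mut replicate 1 and -0.29 without RACK1-Mut replicate 2. With all libraries it was -0.22 there, so over those regions the slope also depended on RACK1-Mut replicate 1. When each library's trend on coding GC content and length was removed before the fit, rho was -0.26 over the ZNF genes and 0.02 over the other regions, and the group medians were 0.09, 0.03 and 0.01.

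The small positive median of the whole group behaved differently from the slope. It was 0.11 without RACK1-WT replicate 2 (50 of 69 positive), 0.03 without RACK1-WT replicate 1, 0.08 without the first RACK1-Mut library, 0.05 without the other one, and 0.05 with the GC and length trend removed. The SD of the group's median between replicates was 0.04, beside the median of 0.08 and the 0.03 without RACK1-WT replicate 1. This SD rests on 2 libraries per group, and the median was not tested. By library, the median log2 ratio to the mean of the 4 libraries was -0.07 and -0.0085 in RACK1-WT and 0.0023 and 0.05 in RACK1-Mut, so both mutant libraries lay above both wild-type ones, by little between the nearest.

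**Figure D3:**
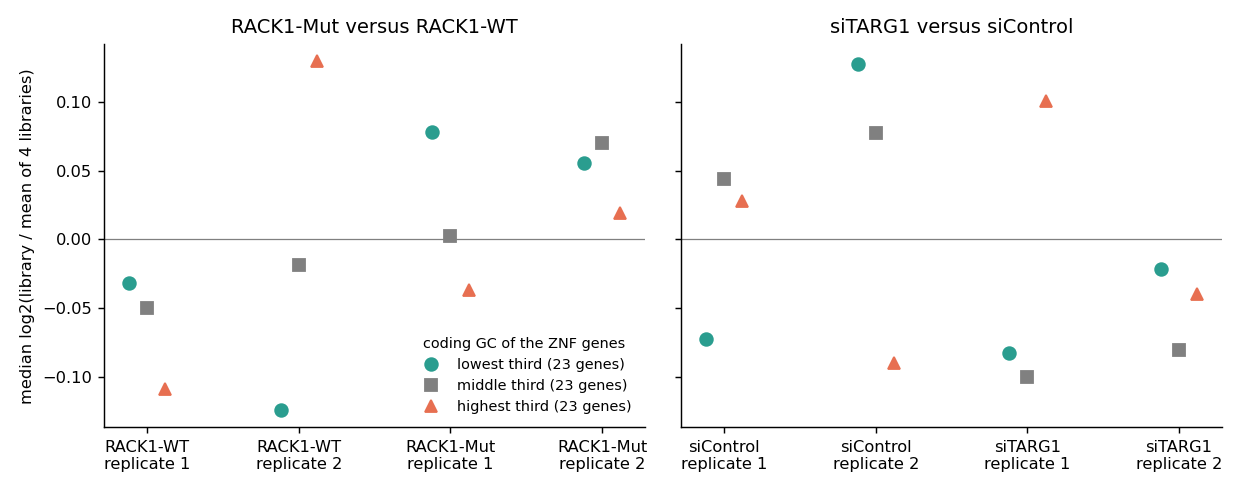
Median log2 ratio of each library to the mean of the 4 libraries of its experiment, for the ZNF genes in the lowest, middle and highest group by coding GC content (23 genes each). In the RACK1 experiment, RACK1-WT replicate 2 is the library in which the lowest GC group lies farthest below 0 (-0.12) and the highest farthest above (0.13). In the siRNA experiment siControl replicate 2 has the lowest GC group on top (0.13) and siTARG1 replicate 1 the highest (0.10).

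By subgroup, the 17 genes with a KRAB match had a median of 0.10 and the 52 without of 0.06, and the 18 genes on chromosome 19 had a median of 0.08, as did the 51 on other chromosomes. Genes with more than 10% shared 28-base words had a median of 0.16 (13 genes), and the others 0.05 (56 genes).

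In the siTARG1 comparison, 13 of 69 ZNF genes (18.8%) changed at a DESeq2 adjusted p under 0.05, with 7 higher and 6 lower in siTARG1. Over all 12056 regions tested 16.4% were called (7.18% higher and 9.19% lower), and over the regions with at least 800 counts 24.3% were, and the share in the ZNF genes lay between these. edgeR called 26 of 69 (37.7%), including all 13, against 28.8% of all regions and 38.4% of those with at least 800 counts. The median log2 fold change was -0.04, against 0.0031 over all regions, and 31 of 69 genes were positive, against 50.4%. Both siTARG1 libraries lay above both siControl libraries in 19 genes and below in 27, where 62.6% of all regions did not overlap (31.2% higher and 31.4% lower).

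**Figure D4:**
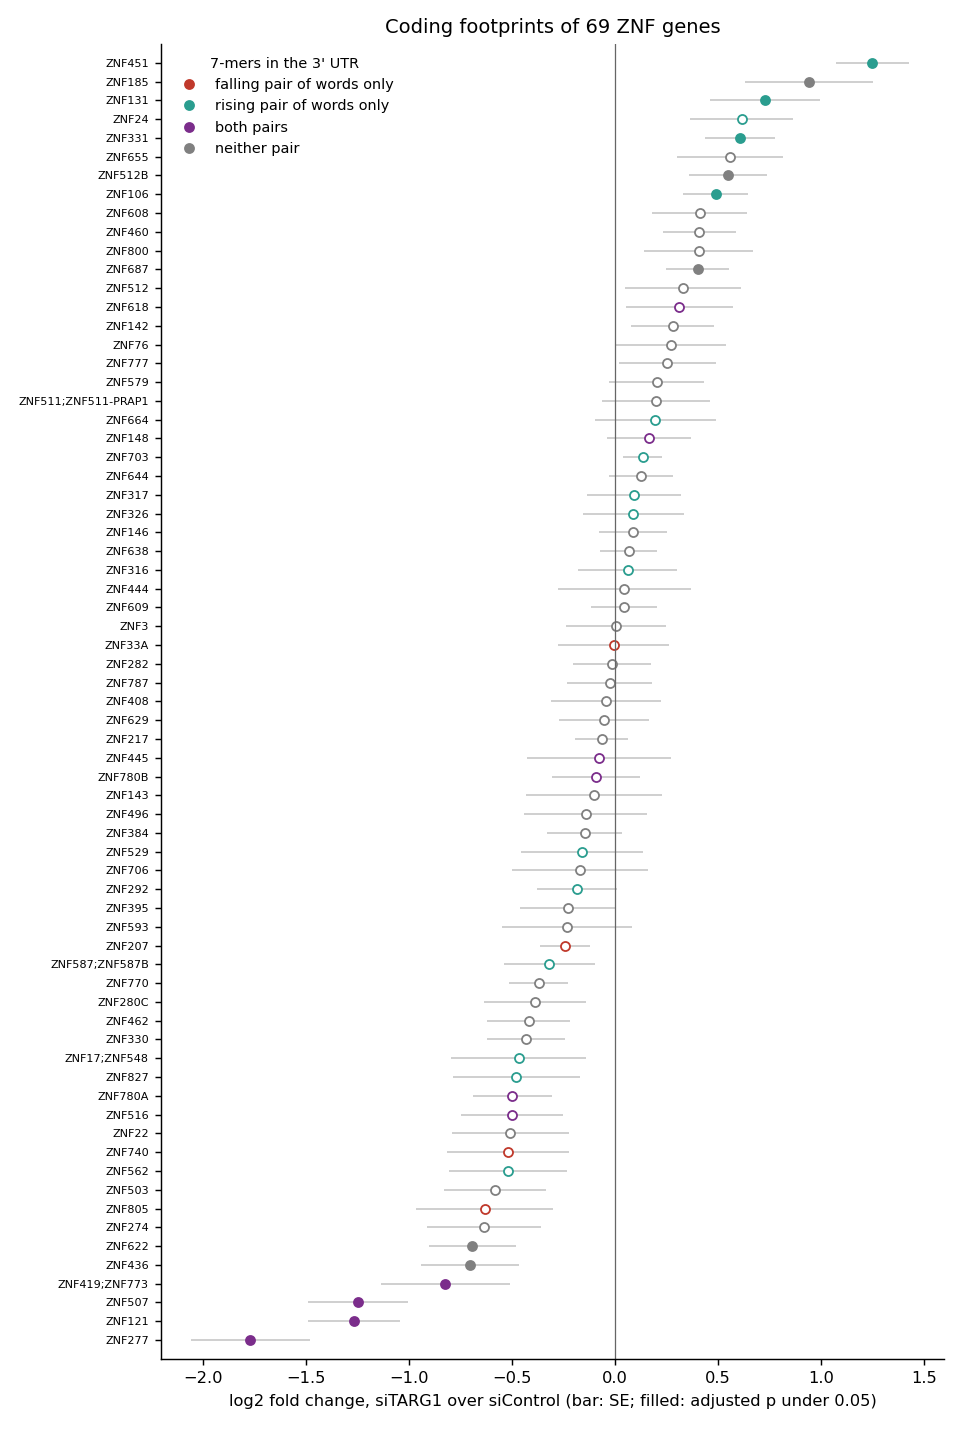
DESeq2 log2 fold change of coding counts, siTARG1 over siControl, for all 69 ZNF genes in order (bars are SE, filled points have an adjusted p under 0.05), coloured by the 7-base words in the 3′ UTR. The calls run from ZNF277 (-1.77) to ZNF451 (1.25), the called genes at the lower end carry both word pairs in 4 of 6 cases, and those at the upper end carry only the rising pair in 4 of 7. The words were found in this same comparison, so these counts are a description and no support for a link.

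ZNF451, a ligase that attaches the small ubiquitin-like modifier SUMO, rose most. It stood at 171 and 159 normalized counts in siControl and at 403 and 382 in siTARG1 (log2 fold change 1.25, SE 0.18, DESeq2 adjusted p = 1.09e-10). The siTARG1 libraries lay well clear of the controls, 2.38-fold higher on average. In the RACK1 experiment, where no siRNA was used, its density was 25.1 to 28.6 in every library, beside 24.3 and 22.8 in siTARG1 and 9.78 and 9.06 in siControl, a difference between experiments that was not tested, since treatment and vectors differ with it.

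Among proteins that bind RNA or take part in splicing and the spindle, 4 of the 7 listed genes were expressed at this level. DESeq2 called 1 of the 4 and edgeR 2, beside 24.3% and 38.4% of the regions with at least 800 counts. ZNF106, an RNA-binding protein, rose from 299 and 278 normalized counts to 386 and 426 (log2 fold change 0.49, SE 0.16, DESeq2 adjusted p = 0.0157), with no overlap of the groups. ZNF207 stood at 809 and 762 in siControl and at 616 and 715 in siTARG1 (log2 fold change -0.24, DESeq2 adjusted p = 0.166). ZNF638 (0.07) and ZNF326 (0.09) had adjusted p-values of 0.817 and 0.868 by DESeq2.

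Of the promoter and chromatin regulators, 16 of the 26 listed genes were expressed at this level, with a median log2 fold change of 0.09. DESeq2 called 2 (12.5%, both higher), against 24.3% of the regions with at least 800 counts. edgeR called 5, against 38.4% of those regions. An unadjusted DESeq2 p under 0.05 was found for 5 (31.3%), against 35.6%. Among those with an unadjusted p under 0.05 but no DESeq2 call were ZNF462 (-0.42, DESeq2 adjusted p = 0.149) and ZNF516 (-0.50, DESeq2 adjusted p = 0.166). ZNF131, a BTB-domain transcription factor, rose from 87.0 and 85.8 to 129 and 159 normalized counts (log2 fold change 0.73, SE 0.27, DESeq2 adjusted p = 0.0387). ZNF687, a subunit of a transcription coregulator complex, rose from 323 and 309 to 426 and 408 (log2 fold change 0.40, SE 0.15, DESeq2 adjusted p = 0.0472). In neither gene did the groups overlap. ZNF217 (-0.06, DESeq2 adjusted p = 0.816) and ZNF703 (0.13, DESeq2 adjusted p = 0.377), the regulators with most counts, did not pass the threshold, and nor did ZNF24 (0.62, DESeq2 adjusted p = 0.0723).

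The assembly factors of the large ribosomal subunit were both expressed. ZNF622, a cytoplasmic maturation factor of pre-60S particles, fell from 302 and 237 normalized counts to 186 and 147 (log2 fold change -0.69, SE 0.21, DESeq2 adjusted p = 0.00938), and both siTARG1 libraries lay below both controls. ZNF593, the other, stood at 90.5 and 78.7 against 76.6 and 67.5 (log2 fold change -0.23, SE 0.32, DESeq2 adjusted p = 0.704). In the RACK1 comparison they had log2 fold changes of -0.12 and 0.08.

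The largest falls were in 3 genes outside these lists. ZNF277, which binds the ribosomal protein uS5, fell from 169 and 151 normalized counts to 44.9 and 49.5 (log2 fold change -1.77, SE 0.29, DESeq2 adjusted p = 4.08e-08), a 3.41-fold drop. ZNF121 fell from 244 and 230 to 95.7 and 102 (log2 fold change -1.26, SE 0.22, DESeq2 adjusted p = 4.61e-07). ZNF507 fell from 194 and 193 to 82.4 and 81.0 (log2 fold change -1.24, SE 0.24, DESeq2 adjusted p = 8.17e-06). In each, replicates lay close together and the groups far apart. ZNF121, which had the smallest p-value in the RACK1 comparison with a positive fold change, thus lay in the opposite direction here. Those comparisons share no library.

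The remaining calls were of a KRAB gene, a joined region and genes of other kinds. ZNF331, an imprinted KRAB gene, rose from 235 and 223 to 336 and 363 normalized counts (log2 fold change 0.61, DESeq2 adjusted p = 0.00383), and ZNF512B, a chromatin protein, from 197 and 180 to 273 and 280 (0.55, DESeq2 adjusted p = 0.0241). ZNF185, a LIM-domain protein of the actin cytoskeleton with no finger match, rose from 67.7 and 52.4 to 129 and 102 (0.94, DESeq2 adjusted p = 0.0188). ZNF436 fell from 185 and 280 to 135 and 150 (-0.70, DESeq2 adjusted p = 0.0212), and here the siControl libraries differ by more than the lower of them differs from siTARG1. The joined region of ZNF419 and ZNF773 fell from 98.4 and 119 to 69.1 and 52.9 (-0.82, DESeq2 adjusted p = 0.0494). Just past the threshold lay ZNF780A (-0.50) and ZNF770 (-0.37), both with a DESeq2 adjusted p of 0.0541.

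Of the 13 silencers of repeats and imprinted loci on the list, 3 were expressed at this level and none was called by DESeq2 (1 by edgeR, and 1 with an unadjusted DESeq2 p under 0.05): ZNF274 (log2 fold change -0.63, DESeq2 adjusted p = 0.0997), ZNF445 (-0.08, DESeq2 adjusted p = 0.928) and ZNF587, which is joined with ZNF587B (-0.32, DESeq2 adjusted p = 0.368). Across all 17 genes with a KRAB match, DESeq2 called 1 higher and 1 lower (11.8%, and 6 by edgeR), with a median of -0.09, beside 24.3% of the regions with at least 800 counts. The 18 genes on chromosome 19 had a median of -0.24, with 1 higher and 3 lower by DESeq2, and the 51 on other chromosomes a median of -0.0057, with 6 higher and 3 lower. In this comparison the medians of the lowest, middle and highest GC groups were -0.09, -0.17 and 0.06, and rho was 0.11 over the ZNF genes and -0.02 over the other regions.

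When each library was left out in turn, ZNF451, ZNF277, ZNF121 and ZNF507 were called every time, ZNF436 once and the other 8 never. The fold change of ZNF436 ran from -0.38 to -0.99 over these fits, that of ZNF622 from -0.51 to -0.87 and that of ZNF185 from 0.76 to 1.14. Without a library, 1 library stands alone in its group and is assumed to vary like the others.

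Genes that fell and rose in siTARG1 were also compared by 7-base words of the mRNA's 3′ UTR that an earlier look at these data had found in this comparison: TGAACAT and GAACATA, a pair more frequent among regions that fell, and TGAATAT and GAATATA, a pair more frequent among regions that rose. Both pairs were searched on the sense strand only, in the annotated 3′ UTR, and the words of a pair overlap by 6 bases. Because the words were found in these libraries, their counts are a description. The window around the first such word is printed for each called ZNF gene that carries one, on the coding strand of GRCh37 with the word in capitals, and the last pair of windows holds both words of the rising pair overlapping. The falling pair is shown for the 4 called genes that carry it, all of which fell, at chr7:111982864-111982890 (plus strand), chr19:9673215-9673241 (minus strand), chr19:32877361-32877387 (plus strand) and chr19:58005763-58005789 (plus strand).
ZNF277: aatttaaattTGAACATcaacaaaaga
ZNF121: ggagcagtgaGAACATAgcatttgtta
ZNF507: ttgatattcaTGAACATgaatacatgt
ZNF419 and ZNF773: agctggcaatTGAACATcattcatcta
The rising pair is shown for the 4 called genes that carry it alone, all of which rose, at chr15:42705167-42705193 (minus strand), chr19:54081945-54081971 (plus strand), chr5:43175236-43175262 (plus strand) and chr6:57033653-57033679 (plus strand).
ZNF106: tttttaatatTGAATATggattagaag
ZNF331: gctgtacaaaGAATATAggaaggcctc
ZNF131: aattacacaTGAATATAtttttaaatt
ZNF451: gcagtgaaaaTGAATATAaaaaaggtg
The 4 fallen genes carry the rising pair as well, 2 times in ZNF277, ZNF121 and ZNF507 and 1 time in the joined region. No word of either pair lies in the annotated 3′ UTR of ZNF436, ZNF622, ZNF687, ZNF512B or ZNF185, which were called without one.

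Over all 69 genes, 10 carried both pairs, with a median log2 fold change of -0.50 and 4 calls, all lower. The 4 with the falling pair alone had a median of -0.38 and no call (3 by edgeR, 1 with an unadjusted DESeq2 p under 0.05), the 16 with the rising pair alone had a median of 0.09 and 4 calls, all higher, and the 39 with neither had a median of -0.01, with 3 higher and 2 lower. Among all regions with at least 800 counts the corresponding medians were -0.13 (610 regions), -0.22 (658), 0.19 (1061) and -0.01 (4463), and DESeq2 called 35.9%, 35.1%, 30.5% and 19.7% of them. These calls went both ways: 70 higher and 149 lower with both pairs, and 35 and 196 with the falling pair alone. With the rising pair alone they were 252 higher and 72 lower, and with neither 356 and 525. By edgeR, 312 of the 658 regions with the falling pair alone were called. In the RACK1 comparison, which used no siRNA, the ZNF genes of the same classes had medians of 0.11, 0.08, 0.09 and 0.04. Longer 3′ UTRs hold more words of any kind: between 1066 and 3989 nt, 3 of 35 ZNF genes (8.57%) carried the falling pair and 12 (34.3%) the rising pair, against 23.2% and 33.5% of 2714 other regions of that length.

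Pooled over the ZNF genes, footprints in the 5′ UTR made up more of the total than over all regions, an excess carried largely by ZNF146 and ZNF664. By library, 6.27% to 7.91% of the 5′ UTR plus coding counts of the 69 genes lay in the 5′ UTR, against 3.88% to 4.42% over all regions, and the median gene had 3.41%, against 1.24% of the regions with at least 800 counts. These sums were uneven, since 4 genes held 5107 of the 9574 5′ UTR counts (53.3%), with 3579 in ZNF146 and 1011 in ZNF664. Another 12 genes had fewer than 10 such counts, and 4 of these had none. The annotated 5′ UTR had a median of 218 nt in the ZNF genes, against 124 nt in the regions with at least 800 counts.

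ZNF146 and ZNF664, both of which consist almost wholly of fingers, had footprints before the start codon in numbers close to those after it. In ZNF146 the 5′ UTR share was 54.9% and 52.6% in siControl, 45.3% and 54.9% in siTARG1, 57.5% and 56.8% in RACK1-WT and 57.6% and 55.2% in RACK1-Mut. Its 5′ UTR region of 1523 nt was longer than its coding sequence of 879 nt, so per length it held 0.689 times the counts of the coding sequence. In ZNF664 the share was 47.9% and 45.8% in siControl, 49.4% and 51.1% in siTARG1, 54.9% and 54.8% in RACK1-WT and 47.4% and 50.2% in RACK1-Mut. Its 5′ UTR region was 1657 nt long. ATG triplets were counted in the annotated 5′ UTR of a single transcript per gene, which can differ from the counted region. They numbered 20 in ZNF146 and 12 in ZNF664. Apart from ZNF664 in the RACK1 libraries, where both RACK1-WT values lay above both RACK1-Mut values, and in the siRNA libraries, where both siTARG1 values lay above both siControl values, groups of these genes overlapped. How often such shares fail to overlap over all regions was not counted.

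ZNF740 had shares of 18.5% and 13.1% in siControl, 17.5% and 18.7% in siTARG1, 21.9% and 26.3% in RACK1-WT and 18.1% and 14.9% in RACK1-Mut. ZNF317, a KRAB gene, had 22.6% and 25.97% in siControl, 21.9% and 13.0% in siTARG1, 18.4% and 15.5% in RACK1-WT and 13.6% and 15.9% in RACK1-Mut, and per length its 5′ UTR held 1.32 times the counts of the coding sequence. In ZNF740 both RACK1-Mut values lay below both RACK1-WT values, and in ZNF317 both siTARG1 values below both siControl values, while the other groups overlapped. Without a share over all regions, these gaps are a description only. Across the 69 genes the share rose with the number of ATG triplets in the annotated 5′ UTR of a single transcript (Spearman's rho 0.49), and a longer 5′ UTR has room for more of both. The share itself comes from the counted 5′ UTR region, which can differ from that annotation.

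**Figure D5:**
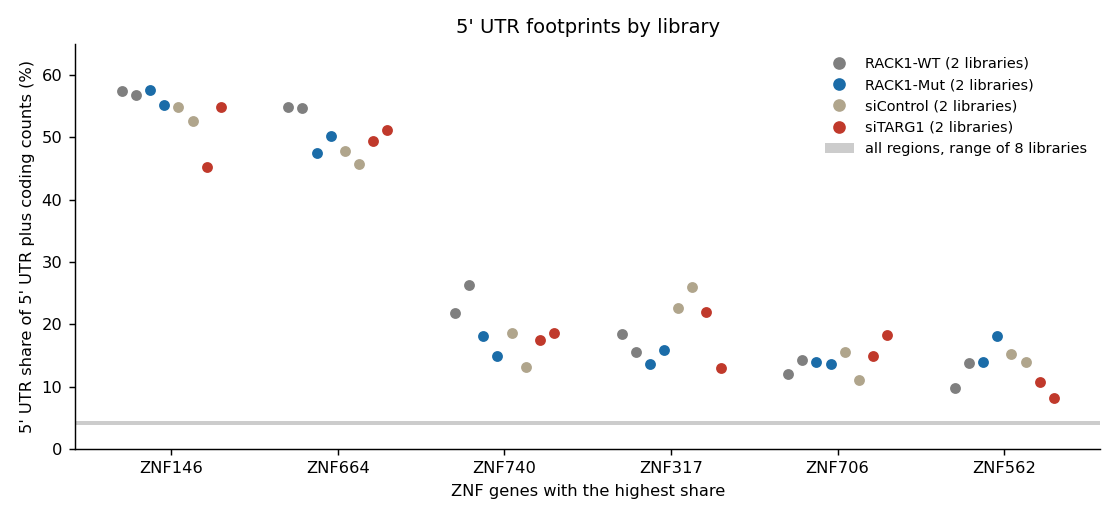
Share of 5′ UTR counts in 5′ UTR plus coding counts (%) in each of the 8 libraries, for the 6 ZNF genes with the highest share, with the range over all regions as a grey band (3.88% to 4.42%). ZNF146 and ZNF664 lie between 45.3% and 57.6% in every library, far above the band.

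Neither comparison changed these shares past the threshold. No ZNF gene was called in 5′ UTR counts in the RACK1 comparison (53 genes tested, 0 by edgeR, and 0 with an unadjusted DESeq2 p under 0.05), where 0% of 6257 regions were called. None was called in the siTARG1 comparison (45 tested, of which 5 received an adjusted p from DESeq2, 0 by edgeR, and 2 with an unadjusted p under 0.05), where 0.458% of 5455 regions were. The 2 genes are 4.44% of those tested, and 5.43% of the 5455 regions had an unadjusted DESeq2 p under 0.05. For 5′ UTR relative to coding counts, DESeq2 and edgeR called 0 ZNF genes in either comparison, as they did over all regions (0% of 6116 and 0% of 5334). On simulated counts this DESeq2 model found 100 of 200 changes (50%) in each comparison, all placed in regions with many 5′ UTR counts. Changes of that size could therefore be missed even at such counts. Smaller changes and genes with fewer such counts were not simulated, so changes there could be missed as well. Unadjusted DESeq2 p-values under 0.05 were found for 0 of 53 ZNF genes in the RACK1 comparison and for 4 of 45 in siTARG1 (ZNF76, ZNF507, ZNF503 and ZNF22). In the RACK1 comparison 1.24% of all regions had such a p-value. For siTARG1 no share over all regions is set beside the 4 genes, so they are a description only. The log2 change of the ratio was -0.67 (SE 0.50) in ZNF740, -0.34 (SE 0.37) in ZNF664, -0.23 (SE 0.46) in ZNF317 and -0.04 (SE 0.33) in ZNF146 for RACK1-Mut, and 0.29 (SE 0.62), 0.27 (SE 0.45), -0.53 (SE 0.55) and -0.14 (SE 0.39) for siTARG1.

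The silencing machinery that KRAB proteins recruit was expressed throughout, with all 25 listed partners tested. None of them was called in the RACK1 comparison (DESeq2, 0 by edgeR and 0 with an unadjusted p under 0.05, median log2 fold change -0.02). In siTARG1, DESeq2 called 6 lower and none higher (edgeR called 10 of the 25), with a median of -0.19, and this share is near the 24.3% of regions with at least 800 counts. The 6 were the heterochromatin proteins CBX3 (-0.70, DESeq2 adjusted p = 8.17e-06) and CBX5 (-0.88, DESeq2 adjusted p = 7.42e-06), the NuRD subunits CHD3 (-0.55, DESeq2 adjusted p = 0.0108) and HDAC1 (-0.40, DESeq2 adjusted p = 0.00112), and TASOR (-0.56, DESeq2 adjusted p = 0.0489) and RESF1 (-0.60, DESeq2 adjusted p = 1.78e-05), which act in the silencing of repeats. TRIM28, the corepressor that KRAB domains bind, had a log2 fold change of -0.06 (DESeq2 adjusted p = 0.664).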

How the data were processed

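The authors removed linkers, barcodes and molecular identifiers, discarded rRNA reads with Bowtie 1.1.2 and aligned the rest to transcripts with TopHat2 2.1.1, with up to 64 hits per read. The sources do not say whether identical identifiers were collapsed. What the authors deposited are raw counts by Plastid per region of hg19 (GRCh37, GENCODE 24), from reads of 26 to 36 nt. The file headers give an offset of 14 nt from the 5′ end and the methods 12 nt from the 3′ end, which was not resolved and matters most at the edges of coding sequences. Symbols were taken from GENCODE 44 lifted to GRCh37 (19612 of 20165 regions, 97.3%).

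Counts were fitted with DESeq2 1.42.0 (Wald test, R 4.3.3) on the 4 libraries of each comparison, for regions with at least 10 counts, with Benjamini-Hochberg adjustment over all regions and calls at an adjusted p under 0.05. edgeR 4.0.16 (quasi-likelihood test) was an alternative. 5′ UTR counts relative to coding counts were fitted in one DESeq2 model with a local dispersion trend, chosen on simulated data. Named are the 5 ZNF genes with most counts, those next to the limit of 800, called genes (at most 8 risen and 8 fallen), in each comparison the 3 largest rises and falls without overlap and a mean of at least 50, the 4 highest 5′ UTR shares and the extremes of GC content. Genes named outside this rule, such as ZNF780A, ZNF24, ZNF593 and the genes with an unadjusted p under 0.05, were chosen after their values were seen. Density is RPKM over coding counts. The genes and lists were chosen with earlier results of these data known.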

Additional observations from a re-analysis of the deposited data

How the results depend on the processing

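In the RACK1 comparison, no ZNF gene was called under any of the 19 alternatives run. In 3 of these DESeq2's filtering left ZNF genes without an adjusted p, so they could not be called: all 69 with the 8 libraries in one fit, 55 with the GC and length trend removed and 15 without RACK1-WT replicate 1. The median log2 fold change stayed positive in all alternatives, at 0.033 to 0.11 when a library was left out. In the siTARG1 comparison, 26 genes were called by edgeR, 20 with all 8 libraries in one DESeq2 fit, 6 with a replicate block, 8 of 27 with a limit of 1600 counts and 4 to 5 when a library was left out, against 13. The replicate block is a term for the replicate number, and same-numbered libraries share only a number: the correlation of their deviations was 0.08 in the RACK1 and 0.03 in the siRNA experiment. In the RACK1 comparison the block left 6 regions called, against 10, with 0 ZNF genes in both. With the GC and length trend removed 14 genes were called, 10 of them among the 13. The siTARG1 median of -0.04 was -0.055 with the replicate block, -0.092 with the GC and length trend removed, -0.063 with the limit of 1600 and -0.077 to -0.033 without a library. It was -0.0044 without the 13 genes that share over 10% of their 28-base words, an alternative chosen after seeing the data, as was the one that kept only genes with a finger match (12 calls). Signs turned for ZNF217 and ZNF638 in the RACK1 comparison without RACK1-WT replicate 2 (over the fits that leave out a library, -0.0031 to 0.076 and -0.019 to 0.24) and for ZNF638 in siTARG1 without siControl replicate 2 (-0.013 to 0.15). The cause of these shifts was not tested. The median ZNF gene held 1326 coding counts over 8 libraries, and 12 of the 69 held fewer than 10 counts in the 5′ UTR.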

Other observations

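Footprints in the 3′ UTR, downstream of the stop codon, were few in the ZNF genes. The median share of 3′ UTR counts in a gene was 0.466%, and the highest was 4.62%. By library the ZNF genes held 0.639% to 1.05%, against 0.695% to 1.95% over all regions. ZNF regions under the limit of 800 counts together held 0.192% to 0.221% of coding counts per library.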
